A study of Xenopus laevis with 12 samples.

Results

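Animal caps of Xenopus laevis treated with activin and retinoic acid together (AcRA caps) were compared with untreated control caps (C). The AcRA group and the C group had 3 arrays each, so that 6 of the 12 arrays of the study were compared. These 6 were chosen by the treatment and the experiment named in their labels. The rest entered the same model, for its estimates of the spread and of the experiments. Each AcRA array was set against the C array of the same experiment (I, II or III). The cap is the ectodermal roof of the blastula, and the caps were cut at stage 9. AcRA caps received 10 ng/ml activin and 0.0001 M retinoic acid, C caps received neither, and the caps of both groups came from uninjected embryos. They were kept for 24 hours at 14 C. By the labels, whole embryos of the same age then stood at stage 12.5, and by the results text of the study somewhat later. About 12 caps were pooled for each RNA. No cap received only 1 of the agents, so the effects of activin and of retinoic acid cannot be told apart. The other 6 arrays held caps from embryos that had received lhx1-AS, an oligonucleotide antisense to the RNA of lhx1, with AcRA (arrays labelled lhx1-AS/AcRA) or without (lhx1-AS).

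Activin, of the TGF-beta family, acts through Smad2 and Smad3 and turns cap cells toward mesoderm and endoderm, in place of the epidermis they form when left alone. BMP ligands act through Smad1, Smad5 and Smad9 and hold the cap on the epidermal path. Retinoic acid binds nuclear receptors, gives posterior and intermediate positions to mesoderm and neural tissue, and switches on genes that break it down. The pair of agents is used to bring forth pronephric kidney in culture.

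Each value is the array signal of a probe set, a group of short probes that reads 1 RNA, on a linear scale with a common trimmed mean of 500.1 on every array. Signals under 1 were set to 1, log2 was taken, and AcRA and C were compared with limma with the experiment as a block, over 15503 probe sets. A change of 2 on the log2 scale is 4-fold, errors of changes are standard errors, and calls of higher or lower need an adjusted p below 0.05. Where a gene has several probe sets, the one brightest on average stands for it, and the endings L and S mark the copies of a gene on the long and short chromosomes of this tetraploid frog. Signals of different probe sets are not on a common scale, so levels are compared between arrays only. Where probe sets of a gene differed in their call, the number that shared the call is given, counted over both copies. The p-values measure the spread between pooled RNAs of 3 experiments in all 4 groups, and 3 arrays a group limit the precision.

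In the order of the experiments, the median signal was 136, 130 and 140 on AcRA arrays, against 129, 126 and 151 on C arrays. The ratio of 3-prime to 5-prime actin signal, a sign of RNA quality, was 0.563 to 0.705 on AcRA arrays and 0.456 to 0.864 on C arrays. The same ratio for Gapd was higher, at 3.36 to 3.99 on AcRA arrays and 3.51 to 4.12 on C arrays. The lhx1-AS array of experiment I, which entered the estimate of the spread, had 5.4 for actin and 13.4 for Gapd. It was not left out by itself for the comparison of AcRA with C. The labelled tissue was checked on marker genes. The epidermal keratin krt70.S gave 19761, 14676 and 19978 in AcRA caps, and 22455, 19243 and 24409 in C caps. The summed signal of 12 markers of cap ectoderm and epidermis was 43257 to 57615 in AcRA caps and 70567 to 84568 in C caps, with 4 of the 12 lower and none higher. The summed signal of 9 mesoderm markers was 3397 to 7607 in AcRA caps and 89.2 to 360 in C caps, where all 9 had a mean under 64. Of these 9, 5 were called higher. Of 8 endoderm markers 3 were higher, and of 5 neural markers 2, with none lower in these sets. The sums of 3 blood markers were 46.1 to 101 in AcRA caps and 52.7 to 133 in C caps, and those of 3 germ plasm markers were 72.5 to 101 in AcRA caps and 48.3 to 77.5 in C caps, with no call in either set. Each array read a pool of whole caps, in which fewer cells of a type and less RNA per cell cannot be told apart.

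AcRA raised 820 probe sets (5.29% of those tested) and lowered 797 (5.14%), together 10.4% of all, with a median log2 change of 2.27 in the first set, -1.70 in the second and 0.01 over all. At an unadjusted p under 0.05, 1699 were higher and 1640 lower. The arrays of the groups did not overlap for 732 of the higher probe sets, where 11.1% of all tested probe sets lay above C on every AcRA array, and for 685 of the lower, where 10.7% of all lay below. Symbols named 434 genes among the higher and 428 among the lower, while 309 and 311 probe sets had no single symbol.

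The size of many changes rested on a low signal in 1 group. The C mean was under 64 for 361 of the 820 higher probe sets, and the AcRA mean was under 64 for 189 of the 797 lower. With 64 added to every signal before log2, the median change was 1.26 among the higher and -1.24 among the lower, 787 and 779 of them were still called, and those at least 4-fold numbered 211 and 129, against 462 and 319 without it. Changes with 64 added are given beside the others for some genes only, and a gene without one may shrink as much. Leaving out 1 array lowered the counts: 539 and 498 probe sets were higher and lower without the AcRA array of experiment II, 536 and 472 without that of III, 512 were lower without the C array of II, and 429 were lower without the C array of III. Without the block by experiment, 479 were higher and 406 lower.

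With 64 added, the largest rise among the named genes was that of an enzyme of retinoic acid breakdown. The signal of cyp26a1.S, the enzyme that oxidizes retinoic acid, was 6173, 4762 and 6144 in AcRA caps, and 17.7, 40.8 and 18.0 in C caps. It rose by 7.91 ± 0.42 on the log2 scale (adjusted p = 3.44e-07, 6.01 with 64 added), with a wide gap between the groups. The reductase dhrs3.L, which turns retinaldehyde back to retinol, had 6538, 6427 and 6450 in AcRA caps and 262, 397 and 242 in C caps. It changed by 4.46 ± 0.20 (adjusted p = 7.75e-08), and its AcRA arrays lay far above its C arrays. A relative of cyp26a1, cyp26c1.S, had 255, 203 and 278 in AcRA caps and 10.9, 6.32 and 4.73 in C caps, a rise of 5.14 ± 0.71 (adjusted p = 0.000369, 2.11 with 64 added).

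The retinoic acid list had 24 measured genes, with 7 higher and 1 lower, with a median change of 0.62. Among all 6505 genes with a single symbol, 5.95% were higher and 6.03% lower, with a median of 0.01. Enzymes that make retinoic acid were among those that rose, aldh1a2.L by 2.94 ± 0.62 (adjusted p = 0.00818) and rdh10.L by 1.41 ± 0.30 (adjusted p = 0.00745, 1 of 2 probe sets). The first lost its call without the block (adjusted p = 0.0708), and the second without the AcRA array of experiment III (adjusted p = 0.051). Of the receptors, rara.L had 101, 241 and 186 in AcRA caps and 16.3, 26.5 and 39.0 in C caps and rose by 2.69 ± 0.44 (adjusted p = 0.00137). The receptor rarg.S had 657, 806 and 691 in AcRA caps and 655, 846 and 604 in C caps, with a change of 0.04 ± 0.26 (adjusted p = 0.964). The corepressor ncor1.S gave 0.25 ± 0.18 (adjusted p = 0.509).

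**Figure D1:**
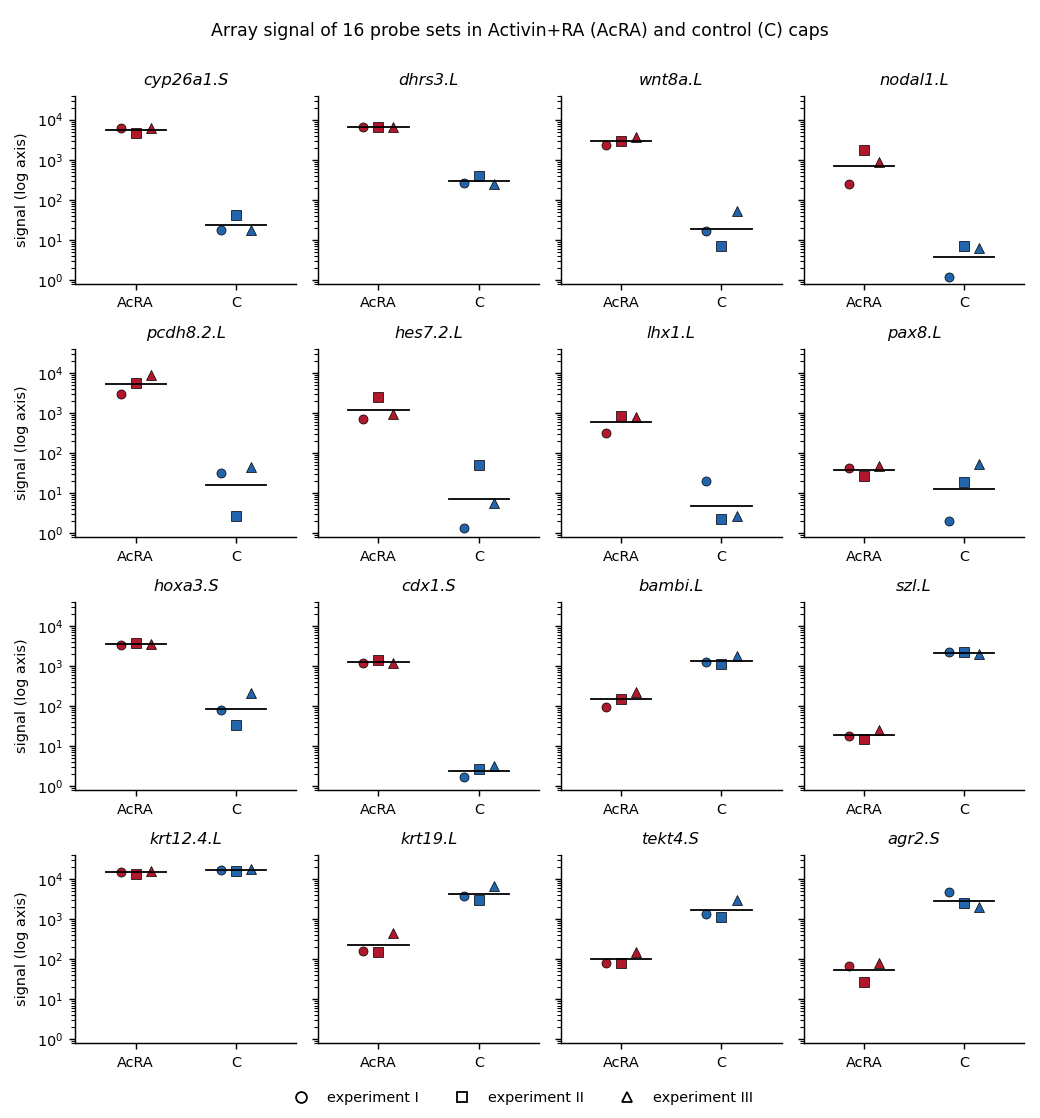
Signal of 16 probe sets on a log axis, with signals under 1 drawn at 1, in AcRA caps (left in each panel) and C caps (right). Each point is 1 array, its shape is the experiment, and the bar is the mean of the log2 values. The groups overlap only for pax8.L, where AcRA arrays reached 48.1 and C arrays 54.2, and lie close together for krt12.4.L, with 13587 to 16115 on AcRA arrays and 16161 to 17516 on C arrays.

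Of 34 measured genes of the gastrula mesoderm, 16 were higher and 1, gata2.L, was lower, with a median of 2.37 (0.92 with 64 added). The ventrolateral ligand wnt8a.L had 2321, 2929 and 3608 in AcRA caps, and 16.9, 7.18 and 51.9 in C caps. It rose by 7.30 ± 0.58 (adjusted p = 7.08e-06, 5.09 with 64 added), and no C array came near the AcRA arrays. The homeobox gene cdx1.S, which acts upstream of posterior Hox genes, had 1168, 1437 and 1200 in AcRA caps and 1.66, 2.73 and 3.22 in C caps. Its change of 9.01 ± 0.64 (adjusted p = 3.46e-06) was 4.32 with 64 added, since C caps were near the lowest signals. Its relative cdx4.L had 1156, 1353 and 1520 in AcRA caps and 1.3, 26.2 and 2.72 in C caps, a rise of 8.2 ± 0.84 (adjusted p = 3.67e-05, 4.26 with 64 added).

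T-box genes of the mesoderm did not all pass the test. The maternal and zygotic factor vegt.L had 448, 2743 and 1214 in AcRA caps and 2.19, 31.1 and 60.2 in C caps, and rose by 6.16 ± 0.69 (adjusted p = 7.87e-05), by 1 of its 2 probe sets. The signal of eomes.L was 355, 922 and 128 in AcRA caps and 1.73, 2.23 and 48.8 in C caps, with no overlap. Its change was 5.92 ± 0.95 (adjusted p = 0.00114, 2.45 with 64 added). Brachyury, read by tbxt.S, gave 43.1, 141 and 89.5 in AcRA caps and 8.69, 9.95 and 54.4 in C caps. Its change of 2.28 ± 0.76 missed the threshold (adjusted p = 0.0789) and its groups overlapped. Other members that rose were sp5l.S, a Wnt target, by 6.04 ± 0.57 (adjusted p = 2.43e-05), snai1.S, a repressor of epithelial genes, by 4.82 ± 0.47 (adjusted p = 2.59e-05), and aplnr.L, a receptor of the early mesoderm, by 4.36 ± 0.47 (adjusted p = 5.44e-05). The brightest members not called were id3, at -0.13 ± 0.19 (adjusted p = 0.79), and marcks.S, at 0.66 ± 0.22 (adjusted p = 0.0875).

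Of 28 measured genes of somites and Notch signalling, 9 were higher, 1 (hes4.L) was lower and the rest were not called, with a median of 1.24. Paraxial protocadherin, a cell sorting protein read by pcdh8.2.L, had 3048, 5740 and 8850 in AcRA caps and 32.0, 2.61 and 44.0 in C caps. It rose by 8.44 ± 0.84 (adjusted p = 3.13e-05, 5.94 with 64 added), and the related pcdh8l.S by 7.62 ± 0.70 (adjusted p = 1.84e-05, 3.59 with 64 added). The Notch pathway repressor hes7.2.L had 714, 2561 and 961 in AcRA caps and 1.33, 50.7 and 5.52 in C caps, a rise of 7.39 ± 0.86 (adjusted p = 0.000105). In both groups experiment II gave the highest hes7.2 signal. The corepressor ripply2.2.S, which sets somite borders, had 871, 1546 and 1255 in AcRA caps and 2.70, 15.4 and 26.2 in C caps and changed by 6.85 ± 0.73 (adjusted p = 5.31e-05). Also higher were mespa.S, a factor of the segment boundary, by 5.44 ± 0.95 (adjusted p = 0.0021), meox2.S, a homeobox gene of the somite, by 4.64 ± 0.71 (adjusted p = 0.0008), and tshz3.L, a zinc finger gene, by 7.53 ± 1.1 (adjusted p = 0.000536, 2.54 with 64 added).

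The Notch ligand jag1.L had 3400, 2113 and 1466 in AcRA caps and 244, 222 and 453 in C caps, a rise of 2.91 ± 0.40 (adjusted p = 0.000367). The ligand dll1.L, at -0.70 ± 0.32 (adjusted p = 0.226), and the receptor notch1.S, at 0.22 ± 0.19 (adjusted p = 0.617), were not called, nor was pax3.L, at 0.10 ± 0.21 (adjusted p = 0.866), whose call 3 of 5 probe sets shared. The Hes repressor hes4.L was lower, at -1.37 ± 0.26 (adjusted p = 0.00354), by 1 of 6 probe sets. The T-box gene tbx6.L, of the presomitic mesoderm, had 20.1, 306 and 193 in AcRA caps and 18.2, 13.2 and 46.6 in C caps, with overlap and no call (2.24 ± 0.83, adjusted p = 0.12), and was called with 64 added (1.17, adjusted p = 0.0233). Of the muscle list, 4 of 27 genes were higher and 1 lower, with a median of 0.50, and leaving out the AcRA array of experiment I kept 2 higher. The muscle determination gene myod1.S had 117, 362 and 54.3 in AcRA caps and 1.17, 15.4 and 9.18 in C caps. Its change of 4.59 ± 0.99 (adjusted p = 0.00876) was not called without the AcRA array of experiment I (adjusted p = 0.065) or without the block (adjusted p = 0.0951), and it came from 1 of its 2 probe sets. Its relative myf5.L gave 0.22 ± 0.77 (adjusted p = 0.931). The T-box gene tbx1.L rose by 5.43 ± 1.09 (adjusted p = 0.00546, 1.53 with 64 added), by 1 of its 2 probe sets. The myosin light chain myl1.L rose by 4.37 ± 1.06 (adjusted p = 0.0176, 0.89 with 64 added, 2 of 4 probe sets), but was not called without the AcRA array of I or III or the C array of I or III (adjusted p = 0.0549 to 0.103), nor without the block (adjusted p = 0.054). The calcium pump atp2a1.S, at -0.30 ± 0.26 (adjusted p = 0.615), and the tropomyosin tpm1.L, at -0.33 ± 0.35 (adjusted p = 0.696), were not called. The kinase ckm.L, an enzyme of working muscle, was lower, with 2701, 1042 and 1871 in AcRA caps and 3998, 3661 and 4965 in C caps (-1.26 ± 0.24, adjusted p = 0.00337), by 1 of its 3 probe sets.

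Of 28 measured Hox genes and cofactors, 18 were higher and none lower, a share of 64.3%, with a median of 3.21 (1.23 with 64 added). Without the dimmest 40% of probe sets, by the mean over all arrays, 6 of the list were higher. Members among the dimmest were then not tested and count as not called. This list holds cdx1, cdx4, gbx2.1 and gbx2.2 too, which were all higher, and egr2, which was not called. The signal of hoxa3.S was 3316, 3842 and 3616 in AcRA caps, and 81.4, 34.7 and 212 in C caps, a rise of 5.41 ± 0.72 (adjusted p = 0.000262, 4.53 with 64 added). For hoxb4.S it was 2333, 1252 and 1429 in AcRA caps and 35.4, 22.3 and 4.93 in C caps, a rise of 6.68 ± 0.84 (adjusted p = 0.000186). For hoxa7.L it was 609, 1004 and 1663 in AcRA caps and 6.82, 33.8 and 6.72 in C caps, a rise of 6.44 ± 0.60 (adjusted p = 2.23e-05). In none of these genes did an AcRA array overlap a C array. The widest Hox change by fold was that of hoxc5.L, with 796, 850 and 733 in AcRA caps and 1.95, 27.7 and 3.01 in C caps (7.18 ± 0.65, adjusted p = 1.68e-05, 3.53 with 64 added), and hoxc6.S rose by 5.09 ± 0.56 (adjusted p = 6.27e-05). Hox genes are numbered by paralog group along the cluster, in the order in which they are used from the hindbrain to the tail. Of the 13 measured genes of groups 2 to 9, 11 were higher, with a median of 4.27. Among the higher, 2 other probe sets of hoxb7 and 1 of hoxd9 did not share the call. Of the 6 measured genes of groups 10 to 13, none was called, with a median of 0.19. Their mean signals were 3.77 to 39.3 in AcRA caps and 3.06 to 34.1 in C caps, so that a change among low signals may not have been detectable here. Of the cofactors that bind DNA beside Hox proteins, pbx2.L, meis1.S and meis2.L were higher, though 1 other probe set of meis1 did not share its call. The cofactors meis3.S, at 0.52 ± 0.25 (adjusted p = 0.256), and pknox1.L, at 0.06 ± 0.28 (adjusted p = 0.952), were not called.

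**Figure D2:**
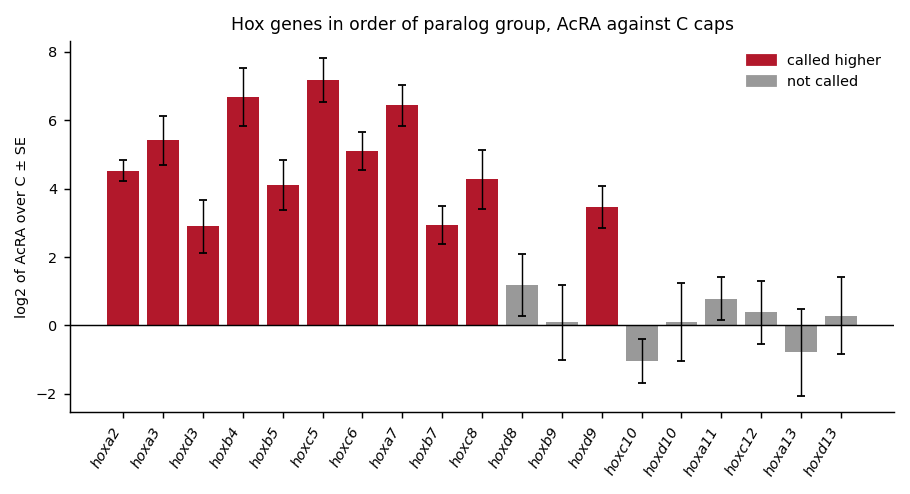
Log2 change of AcRA over C with its standard error for the 19 measured Hox genes, in order of paralog group. Bars are changes, and red bars (hoxa2 to hoxc8, and hoxd9) are called higher, with changes of 2.90 to 7.18, while hoxd8, hoxb9 and the 6 genes of groups 10 to 13 are not called.

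Genes of the kidney field were read in part. LIM homeobox gene lhx1.L, an early regulator of the pronephros, had 316, 823 and 779 in AcRA caps and 19.8, 2.19 and 2.60 in C caps, and its 3.2 with 64 added stood against 6.93 ± 1.06 without (adjusted p = 0.000758). The partner gene pax8.L had 42.6, 26.3 and 48.1 in AcRA caps and 2.01, 18.7 and 54.2 in C caps. Its groups overlapped, and the change of 1.57 ± 0.88 was not called (adjusted p = 0.35). All these pax8.L signals were under 64, so a change may not have been detectable. By RT-PCR, the study reported that AcRA induced pax8 in caps at a later stage than that of the labels. Of 26 measured genes of kidney formation, 11 were higher and 2 lower, with a median of 1.70. The lower genes were atp1b1.S and tbx2.L. The first encodes a sodium pump subunit that the study used as a tubule marker in whole embryos much older than these caps. By the study, its pronephric transcripts appear only after the stage of these caps, so this fall cannot be read as one of pronephric tubule.

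Several genes of the kidney list are used in other tissues too. The zinc finger gene sall1.L, also a member of the pluripotency list, had 2566, 1586 and 2168 in AcRA caps and 597, 303 and 481 in C caps, a rise of 2.22 ± 0.21 (adjusted p = 2.48e-05, 2 of 3 probe sets). The activin antagonist fst.L rose by 4.18 ± 0.90 (adjusted p = 0.00849), but not by the threshold without the AcRA array of experiment III (adjusted p = 0.0516) or the C array of II (adjusted p = 0.0564). The transcription factor genes mecom.L, at 3.44 ± 0.73 (adjusted p = 0.00838), and eya1.L, at 3.62 ± 0.69 (adjusted p = 0.00386, 0.77 with 64 added), were higher. Without the AcRA array of experiment I, mecom.L was not called (adjusted p = 0.0575). For pax2.L, the signal was 92.3, 110 and 172 in AcRA caps and 42.8, 24.2 and 23.4 in C caps. Its rise of 2.06 ± 0.59 (adjusted p = 0.0425) came from 1 of 8 probe sets and was lost when the AcRA array of II or III, or any of the C arrays, was left out (adjusted p = 0.0856 to 0.276). The homeobox gene emx2.L had 938, 85.3 and 194 in AcRA caps and 22.1, 33.8 and 84.4 in C caps. Its rise of 2.65 ± 0.69 (adjusted p = 0.0259) was not called without the AcRA array of I (adjusted p = 0.123) or the C array of I (adjusted p = 0.135) or II (adjusted p = 0.0577), nor without the block (adjusted p = 0.052). Neither osr1.L, at 1.83 ± 0.59 (adjusted p = 0.0722), nor wt1.L, the podocyte regulator, at 1.55 ± 0.73 (adjusted p = 0.243), was called. The brightest uncalled members were gata3.S, at -0.76 ± 0.25 (adjusted p = 0.0763), and irx2.L, at 0.67 ± 0.39 (adjusted p = 0.371).

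Of 30 measured genes of the organizer and axial mesoderm, 10 were higher and 2 lower, with a median of 1.1 (0.21 with 64 added), and 5 stayed higher when the AcRA array of I or that of II was left out. The secreted protein gene pnhd.L had 493, 1224 and 724 in AcRA caps and 1.35, 0.972 and 20.5 in C caps, a rise of 7.97 ± 1.08 (adjusted p = 0.000312, 3.54 with 64 added). The antagonist of Nodal, BMP and Wnt, cer1.S, had 235, 841 and 594 in AcRA caps and 24.4, 2.89 and 38.1 in C caps, a rise of 5.14 ± 0.74 (adjusted p = 0.000493). Goosecoid, the head organizer factor read by gsc.L, had 27.8, 38.6 and 4.49 in AcRA caps and 1.32, 2.99 and 22.8 in C caps. It was not called by any of its 3 probe sets (1.92 ± 1.1, adjusted p = 0.361). The head gene otx2.L was lower, with 46.0, 141 and 24.0 in AcRA caps and 456, 174 and 233 in C caps (-2.30 ± 0.54, adjusted p = 0.0146). It lost the call without the AcRA array of I or III or the C array of I or III (adjusted p = 0.0538 to 0.0923), and it came from 1 of its 3 probe sets.

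Of 24 measured endoderm genes, 7 were higher and none lower, with a median of 1.08 (0.27 with 64 added). The factor gata6.L had 3066, 2466 and 4696 in AcRA caps and 920, 855 and 559 in C caps, a rise of 2.11 ± 0.25 (adjusted p = 0.000128). The protease inhibitor gene a2m.S had 3799, 3043 and 5039 in AcRA caps and 762, 287 and 230 in C caps, a rise of 3.39 ± 0.41 (adjusted p = 0.000135). The gene darmin.L, an endoderm marker in the frog, had 217, 596 and 400 in AcRA caps and 13.2, 3.76 and 17.1 in C caps, a rise of 5.3 ± 0.67 (adjusted p = 0.000195). The early endoderm factors sox17a.S, at 1.65 ± 0.86 (adjusted p = 0.307), gata4.L, at 2.16 ± 0.82 (adjusted p = 0.131), gata5.S, at -0.44 ± 0.45 (adjusted p = 0.681), and foxa1.S, at 0.56 ± 0.60 (adjusted p = 0.692), were not called.

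Of 17 measured ligands of the Activin, Nodal and BMP kind, 2 (nodal1.L and nodal2.L) were higher, 3 (bmp4.S, bmp7.1.L and bmp7.2.L) were lower and the rest, other Nodal and BMP genes among them, were not called, with a median of 0.25. The signal of nodal1.L was 250, 1708 and 864 in AcRA caps, and 1.18, 7.19 and 6.18 in C caps, a rise of 7.58 ± 0.68 (adjusted p = 1.68e-05, 3.54 with 64 added). That of bmp7.2.L was 360, 1009 and 275 in AcRA caps and 2072, 2820 and 1236 in C caps (-2.06 ± 0.33, adjusted p = 0.00126). Both groups were highest in experiment II, and they did not overlap. For bmp7.1.L the change was -1.42 ± 0.27 (adjusted p = 0.0039). For bmp4.S, with 451, 454 and 870 in AcRA caps and 1309, 1332 and 993 in C caps, it was -1.09 ± 0.25 (adjusted p = 0.0135). Leaving out an AcRA or C array of experiment I or II ended the bmp4.S call (adjusted p = 0.0619 to 0.0931). The second of these Nodal genes, nodal2.L, rose by 1.96 ± 0.55 (adjusted p = 0.0369), but not without the AcRA array of II or III or the C array of II (adjusted p = 0.134 to 0.208), nor without the block (adjusted p = 0.144). The ligands admp.S, at 1.03 ± 0.73 (adjusted p = 0.498), bmp2.S, at 1.08 ± 0.67 (adjusted p = 0.416, 1 of 2 probe sets), and lefty.L, a Nodal inhibitor, at 1.89 ± 0.80 (adjusted p = 0.18), were not called.

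Of genes known as BMP targets or feedback inhibitors, several were lower, 2 ventx2 genes were higher, and others were not called. The decoy receptor bambi.L had 93.9, 151 and 226 in AcRA caps and 1260, 1159 and 1786 in C caps, a change of -3.22 ± 0.30 (adjusted p = 1.92e-05). The inhibitory Smad gene smad7.L had 3680, 4211 and 3771 in AcRA caps and 11214, 10396 and 7802 in C caps (-1.32 ± 0.24, adjusted p = 0.00263, 2 of 3 probe sets), and smad6.L changed by -1.53 ± 0.26 (adjusted p = 0.00183). The BMP receptor Smad smad9.S had 189, 95.2 and 439 in AcRA caps and 1807, 1100 and 1658 in C caps (-2.90 ± 0.40, adjusted p = 0.000323). The groups of these genes did not overlap. Sizzled, a secreted inhibitor of Chordin proteases that BMP switches on in the frog, was read by szl.L, with 18.3, 14.7 and 24.7 in AcRA caps and 2214, 2278 and 1989 in C caps. It changed by -6.84 ± 0.35 (adjusted p = 2.64e-07, -4.74 with 64 added), and its copy szl.S by -5.65 ± 0.77 (adjusted p = 0.000312). The inhibitors of bHLH factors id2.S, at -1.71 ± 0.32 (adjusted p = 0.00347, 1 of 2 probe sets), and id4.S, at -2.40 ± 0.32 (adjusted p = 0.000312), were lower too. Against these stood ventx2.2.L, a homeobox gene also known as a BMP target, with 489, 529 and 506 in AcRA caps and 30.2, 70.1 and 57.6 in C caps, a rise of 3.36 ± 0.38 (adjusted p = 8.09e-05). Its relative ventx2.1.S was higher too, by 0.95 ± 0.26 (adjusted p = 0.0349), but not without the C array of III or any 1 AcRA array (adjusted p = 0.0575 to 0.203), nor without the block (adjusted p = 0.125). The BMP targets msx1.L, at -0.40 ± 0.28 (adjusted p = 0.496), and ventx1.1.L, at 0.35 ± 0.27 (adjusted p = 0.542), were not called, nor was id3 of the mesoderm list.

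Of 25 measured receptors, Smads and regulators of Smad action in the TGF-beta family list, 5 were higher and 5 lower, with a median of -0.18, and 3 were higher without the block. Among the higher, only acvr2b.S was a receptor or Smad gene, and 2 other probe sets of acvr2b did not share its call. The other higher members included ski.S, a repressor of Smad action, which had 698, 1318 and 1010 in AcRA caps and 156, 195 and 177 in C caps, a rise of 2.48 ± 0.24 (adjusted p = 2.52e-05). The repressor genes zeb2.S and znf703.S rose by 5.33 ± 0.86 (adjusted p = 0.00123, 1.14 with 64 added) and 3.67 ± 0.51 (adjusted p = 0.00037, 1 of 2 probe sets for znf703.S). The common mediator smad4.L, at 0.28 ± 0.22 (adjusted p = 0.558), and the activin mediator smad2.L, at 0.17 ± 0.22 (adjusted p = 0.766), were not called. The list of secreted antagonists also holds the protease genes bmp1, tll1 and tll2, which are not antagonists. Of its 21 measured genes, 5 were higher and 3 (tll1.S, bmper.L and szl.S) lower, with a median of 0.04, and 3 were higher without the AcRA array of experiment III or the C array of II. Among them the Wnt antagonist sfrp1.L had 1168, 1831 and 486 in AcRA caps and 7.08, 24.8 and 54.4 in C caps (5.58 ± 0.66, adjusted p = 0.000113), and sfrp2.S rose by 1.70 ± 0.27 (adjusted p = 0.00117). Neither twsg1.L, at -1.09 ± 0.41 (adjusted p = 0.13), nor frzb.S, at 1.77 ± 0.65 (adjusted p = 0.118), was called.

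The epidermal program was lower in part. Of 38 measured epidermal genes, 1 was higher and 14 lower (36.8%), with a median of -0.67. Dropping the AcRA array of experiment II or III left 8 lower, 9 were lower without the C array of III and also without the block, and 6 without the variance trend. The keratin krt19.L had 165, 152 and 464 in AcRA caps and 3770, 3091 and 6888 in C caps, a change of -4.25 ± 0.44 (adjusted p = 3.82e-05). Both groups were highest in experiment III and they did not overlap. The keratin krt17.S changed by -3.86 ± 0.73 (adjusted p = 0.0039, -1.20 with 64 added). The homeobox gene dlx5.L, which BMP induces at the border of the neural plate, had 43.2, 52.5 and 35.7 in AcRA caps and 806, 537 and 571 in C caps (-3.86 ± 0.37, adjusted p = 2.48e-05). The keratin krt12.4.L, long used as a marker of frog epidermis, had 15142, 13587 and 16115 in AcRA caps and 16915, 16161 and 17516 in C caps. Its AcRA arrays lay below all C arrays, but the change of -0.18 ± 0.31 was not called (adjusted p = 0.836). For krt70.S, where the groups overlapped, the change was -0.29 ± 0.58 (adjusted p = 0.86), and none of its 5 probe sets was called.

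Among the specialised cells of the frog epidermis, 14 of 29 measured genes were lower (48.3%) and 1 was higher, with a median of -1.70. Multiciliated cells beat fluid over the skin, and their genes made up most of the falls. The ciliary protein tekt4.S had 82.7, 80.3 and 154 in AcRA caps and 1320, 1158 and 3041 in C caps (-4.05 ± 0.62, adjusted p = 0.000831). The dynein chain dnai1.L had 55.8, 68.9 and 74.0 in AcRA caps and 763, 919 and 888 in C caps (-3.70 ± 0.41, adjusted p = 7.83e-05). The centrin cetn4.L had 275, 109 and 252 in AcRA caps and 2640, 1531 and 2374 in C caps (-3.43 ± 0.22, adjusted p = 1.59e-06). In all of them the highest AcRA array was below the lowest C array. Genes that set up this cell type fell likewise: ccno.L, needed to multiply centrioles, by 3.16 ± 0.38 (adjusted p = 0.000123), and the forkhead gene foxn4.S by 3.29 ± 0.38 (adjusted p = 0.000101). The tektin tekt2.S changed by -3.63 ± 0.48 (adjusted p = 0.000261, 1 of 2 probe sets), while cetn1.L, at 0.19 ± 0.22 (adjusted p = 0.737), was not called. Of genes of ionocytes, which carry out ion transport, the regulator ubp1.L, at -2.48 ± 0.33 (adjusted p = 0.000281), and the carbonic anhydrase ca12.L, at -2.73 ± 0.47 (adjusted p = 0.0021), were lower. The anion exchanger gene slc4a1.L was the 1 higher gene of the list, and the proton pump genes atp6v1b1.L, atp6v0d2.L and atp6v1a.L were not called. The ionocyte master gene foxi1.L had 35.9, 14.9 and 40.3 in AcRA caps and 123, 63.2 and 143 in C caps, and its change of -1.90 ± 0.63 missed the threshold (adjusted p = 0.0822), although its arrays did not overlap. The secretory mucin-like gene otogl2.L had 7363, 7398 and 6836 in AcRA caps and 7314, 6764 and 6709 in C caps, with overlap and no call (0.06 ± 0.18, adjusted p = 0.924). The lectin itln1.L, of the same list, had 7519, 1889 and 9681 in AcRA caps and 9013, 12909 and 18613 in C caps. It was lower, at -1.33 ± 0.39 (adjusted p = 0.0479), with overlap, but not without the AcRA array of II or the C array of II or III (adjusted p = 0.167 to 0.233), nor without the block (adjusted p = 0.153).

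The cement gland is the sticky organ at the front of the tadpole's head. Its secreted protein agr2.S had 69.5, 27.0 and 81.8 in AcRA caps and 4777, 2597 and 2025 in C caps, a change of -5.77 ± 0.32 (adjusted p = 4.11e-07). The related ag1.S had 107, 174 and 102 in AcRA caps and 5712, 5435 and 5435 in C caps (-5.48 ± 0.41, adjusted p = 4.39e-06). With the other copies, ag1.L at -2.84 ± 0.29 (adjusted p = 3.61e-05) and agr2.L at -7.12 ± 0.69 (adjusted p = 2.55e-05, -3.76 with 64 added), both genes fell by both copies. Of 4 measured genes of the cement and hatching glands 2 were lower, with a median of -2.69, and pitx1.L, at -1.84 ± 0.82 (adjusted p = 0.209), and cpa6.L, at -2.54 ± 1.00 (adjusted p = 0.144), were not called.

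**Figure D3:**
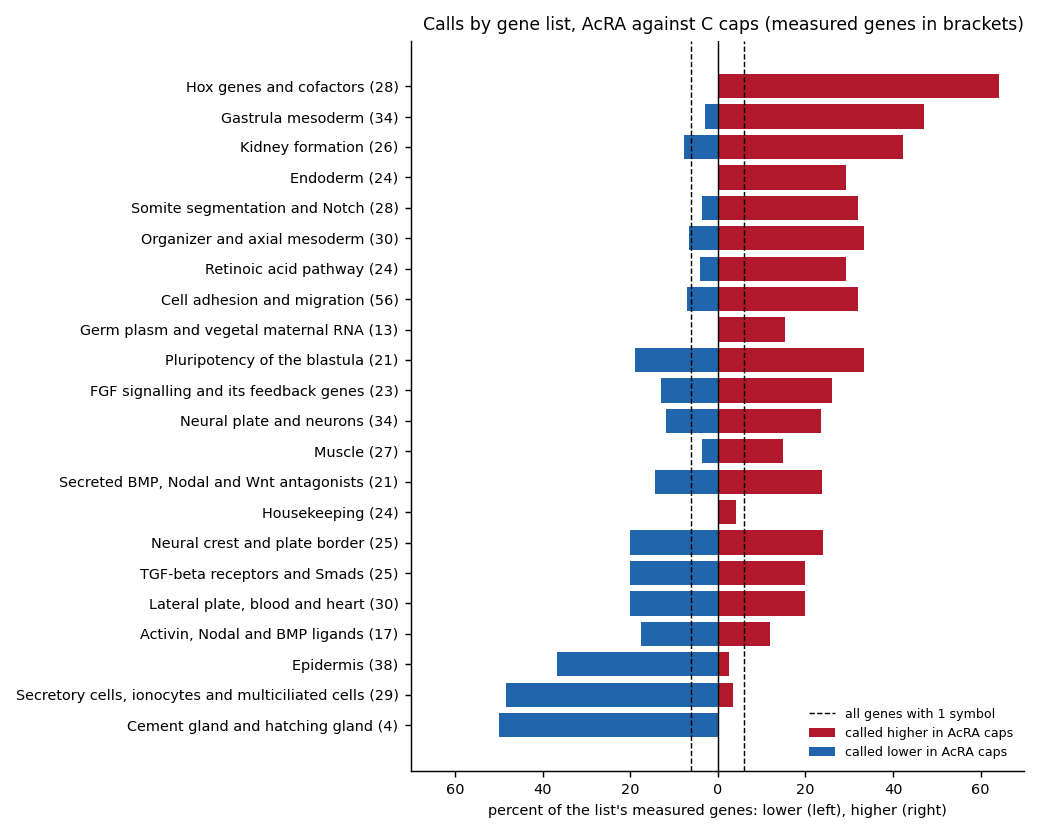
Share of the measured genes of each of 22 lists called higher (right, red) and lower (left, blue) in AcRA against C caps, with the number measured in brackets. The dashed lines mark the shares among all 6505 genes with 1 symbol, 5.95% higher and 6.03% lower. Hox genes and cofactors reach 64.3% higher, and the secretory, ionocyte and multiciliated list 48.3% lower.

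Many list counts depended on single arrays or on the processing. The 1 lower retinoic acid gene was lost without the AcRA or C array of experiment II. The lower mesoderm genes were 2 without the AcRA array of III. The higher epidermal genes were 2 without the AcRA array of I, and 0 without the AcRA or C array of III. Of the lower organizer genes, 0 were left without the AcRA array of I or III or the C array of I, and 1 without the C array of II. Of the 2 lower kidney genes, 0 were left without the AcRA array of II or III or the C array of II, and 1 without the C array of I or III. The 1 higher gene of the secretory, ionocyte and multiciliated list was lost when any array but the C array of III was left out. Lower adhesion genes were 1 and 2 without the AcRA array of II or III, and 0 and 1 without the C array of I or II. Lower FGF genes were 1 without the AcRA array of II, lower pluripotency genes were 2 without the AcRA array of III or the C array of II, and higher germ plasm genes were 1 without the AcRA array of I or III or the C array of I. Leaving out the dimmest 40% of probe sets tests fewer genes, and members left out count as not called. There, 10 gastrula mesoderm, 6 kidney, 5 somite, 4 retinoic acid, 3 organizer, 3 lateral plate and 3 antagonist genes were higher. Of the muscle and ligand genes 0 were higher, and 1 kidney, 2 neural and 2 pluripotency genes were lower. Without the variance trend 6 organizer genes and 1 ligand gene were higher, 0 of the epidermal and of the secretory list, while 3 lateral plate genes, 1 FGF gene and 0 organizer, kidney and adhesion genes were lower.

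Neural genes showed no single direction. Of 34 measured, 8 were higher and 4 lower, with a median of 0.58. The higher members were 2, 3, 5, 3 and 4 on leaving out the AcRA array of I or II or the C array of I, II or III, and the lower members were 1 and 0 without the AcRA array of I or III and 1, 2 and 1 without the C array of I, II or III. Without the variance trend 3 were higher and 2 lower. The pan-neural factor sox11.S had 8827, 8190 and 7881 in AcRA caps and 1307, 1937 and 613 in C caps (2.84 ± 0.31, adjusted p = 6.61e-05). Its relative sox2.L had 479, 385 and 238 in AcRA caps and 60.1, 45.4 and 21.3 in C caps (3.19 ± 0.36, adjusted p = 7.99e-05). In both genes all AcRA arrays were above all C arrays. The forkhead gene foxd4l1.1.S had 34.7, 145 and 5.35 in AcRA caps and 2.72, 1.6 and 1.38 in C caps (4.04 ± 1.2, adjusted p = 0.0484), and with 64 added it was not called (0.77, adjusted p = 0.199). Leaving out any array but the AcRA array of III ended its call (adjusted p = 0.0674 to 0.257). The zinc finger gene zic5.S was lower, at -3.44 ± 0.85 (adjusted p = 0.0191), but not without the AcRA or C array of I or III (adjusted p = 0.0863 to 0.108), nor with 64 added (adjusted p = 0.0749). Neither sox15.L, at 0.45 ± 0.25 (adjusted p = 0.349), nor zic2.S, at 0.16 ± 0.42 (adjusted p = 0.902, 2 of 3 probe sets), was called. Of 25 genes of the neural crest and plate border, 6 were higher and 5 (id2.S, hes4.L, msx2.L, id4.S and dlx5.L) lower, with a median of 0. For msx2, 1 other probe set did not share the call. Members not called included foxd3.L, sox9.S, sox10.L, snai2.L and tfap2a.L. Those that rose included cdh11.S, a cadherin of migrating cells, at 4.71 ± 0.58 (adjusted p = 0.000162), and the transcription factor gene prdm1.S, at 3.88 ± 0.48 (adjusted p = 0.000171, 2 of 3 probe sets). The Wnt feedback gene axin2.S, of the same list, had 1152, 938 and 1070 in AcRA caps and 96.9, 139 and 134 in C caps and rose by 3.11 ± 0.31 (adjusted p = 2.87e-05).

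Of 56 measured genes of cell adhesion and movement, 18 (32.1%) were higher and 4 lower, with a median of 0.49. The receptor pdgfra.L, which guides mesoderm cells in gastrulation, had 1268, 2018 and 2957 in AcRA caps and 57.9, 29.5 and 6.04 in C caps (6.49 ± 0.64, adjusted p = 2.87e-05, 4.45 with 64 added). The Wnt co-receptor ror2.L had 1171, 1508 and 1267 in AcRA caps and 28.4, 5.66 and 4.78 in C caps (7.16 ± 0.62, adjusted p = 1.32e-05). The polarity gene prickle1.L had 1048, 1532 and 1098 in AcRA caps and 154, 80.7 and 181 in C caps (3.2 ± 0.31, adjusted p = 2.62e-05). No array of 1 group reached the range of the other. The membrane protease mmp14.L rose by 2.92 ± 0.38 (adjusted p = 0.000244), while the integrin chain itgb1.L, at 0.30 ± 0.15 (adjusted p = 0.274, 2 of 3 probe sets), and the chemokine receptor cxcr4.L, at -0.65 ± 0.27 (adjusted p = 0.174), were not called.

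Of 23 genes of FGF signalling, 6 were higher and 3 (fgfr2.L, dusp1.L and klf6.L) lower, with a median of 0.38. Each of these 3 genes had at least 1 other probe set that did not share its call. The ligand fgf8.L had 1636, 2309 and 1461 in AcRA caps and 678, 589 and 203 in C caps, and its rise of 2.03 ± 0.33 (adjusted p = 0.00135) was seen in 1 of 3 probe sets. The receptors fgfr1.L and fgfr4.L rose by 2.32 ± 0.23 (adjusted p = 2.9e-05) and 2.44 ± 0.41 (adjusted p = 0.00172, 2 of 3 probe sets for fgfr4.L). The receptor fgfr2.L was among the lower genes, and fgfr3.S was not called. The target genes etv4.L and etv1.S rose by 2.15 ± 0.38 (adjusted p = 0.00252) and 4.32 ± 0.87 (adjusted p = 0.00573, 1.44 with 64 added for etv1.S). The adaptor frs2.L, at 0.30 ± 0.22 (adjusted p = 0.522), and cnksr1.L, at -0.48 ± 0.18 (adjusted p = 0.122), were not called. The feedback phosphatase dusp6.L rose by 3.21 ± 0.85 (adjusted p = 0.0287), but was not called when any array but the C array of I was left out (adjusted p = 0.0538 to 0.156). Of 30 genes of lateral plate, blood and heart, 6 were higher and 6 lower, with a median of -0.08. The homeobox gene nkx2-3.L had 3.91, 3.82 and 31.8 in AcRA caps and 1764, 933 and 944 in C caps, the widest fall by fold among the genes with 1 symbol (-7.21 ± 0.67, adjusted p = 2.21e-05, -4.01 with 64 added). The lateral mesoderm factor hand1.L had 218, 90.0 and 503 in AcRA caps and 22.8, 2.13 and 46.9 in C caps and rose by 4.03 ± 0.72 (adjusted p = 0.00256). Neither klf17.L, at 0.62 ± 0.42 (adjusted p = 0.471), nor xpo1.S, at 0.48 ± 0.21 (adjusted p = 0.207), was called. Leaving out an array other than the C array of III brought the members lower to 2 or 3.

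Of 21 genes of blastula pluripotency, 7 were higher and 4 lower, with a median of 0.35. The RNA-binding protein genes lin28a.S, with 4930, 4380 and 4184 in AcRA caps and 925, 861 and 931 in C caps (2.31 ± 0.32, adjusted p = 0.00036), and lin28b.S, at 2.03 ± 0.33 (adjusted p = 0.00137), both rose. The factor klf2.S, with overlapping groups, changed by -2.61 ± 0.66 (adjusted p = 0.0224, 1 of 2 probe sets), and leaving out any array but the AcRA array of II ended that call (adjusted p = 0.0557 to 0.13), as did leaving out the block (adjusted p = 0.098). The Wnt effector tcf7l1.L fell by 1.32 ± 0.25 (adjusted p = 0.00403, 1 of 2 probe sets). For tfcp2l1.S, which was 2338, 663 and 699 in AcRA caps and 4909, 2793 and 2751 in C caps, the change was -1.71 ± 0.23 (adjusted p = 0.000312, 0.0715 without the block, 1 of 2 probe sets). The frog homolog of the pluripotency factor Oct4, pou5f3.1.L, had 1756, 2802 and 2613 in AcRA caps and 2773, 2915 and 1741 in C caps, with no call (-0.04 ± 0.23, adjusted p = 0.957), and myc.L gave 0.00 ± 0.24 (adjusted p = 0.996), a call shared by 2 of 5 probe sets, the other 3 being higher. Housekeeping genes had a median of 0.05, and of 24 only gapdh.L was called (1.05 ± 0.21, adjusted p = 0.00603). Without the AcRA array of experiment III its adjusted p was 0.0517, and without the block 0.419. The actin actb.L, at 0.06 ± 0.14 (adjusted p = 0.893), and the elongation factor eef1a1.S, at 0.31 ± 0.13 (adjusted p = 0.198, 1 of 2 probe sets), were not called. Of 13 germ plasm and vegetal genes, 2, vegt.L and dnd1.L, were higher and none lower, with a median of 0.44. The germ cell RNA-binding protein gene dnd1.L rose by 1.56 ± 0.36 (adjusted p = 0.0129), but not without the AcRA array of I or III or the C array of I (adjusted p = 0.0532 to 0.0756), nor without the block (adjusted p = 0.0501). The germ cell helicase ddx4.L, at 0.44 ± 0.19 (adjusted p = 0.179), and rtn3.L, at -0.10 ± 0.19 (adjusted p = 0.851), were not called.

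Some of the largest changes lay outside the lists. The membrane protein gene nradd.L had 1799, 2083 and 2323 in AcRA caps and 4.26, 36.1 and 7.51 in C caps, a rise of 7.61 ± 0.93 (adjusted p = 0.00015, 4.75 with 64 added). The acetyltransferase family gene nat8.6.S had 344, 2671 and 2967 in AcRA caps and 0.746, 21.4 and 1.96 in C caps (8.65 ± 0.97, adjusted p = 7.87e-05, 4.39 with 64 added), and the collagen gene col9a1.L had 542, 2563 and 1385 in AcRA caps and 2.78, 17.4 and 3.06 in C caps (7.88 ± 0.69, adjusted p = 1.32e-05, 4.21 with 64 added). In both, the AcRA array of experiment I was the lowest of its group. The fatty acid elongase elovl2.L had 54.7, 15.3 and 85.3 in AcRA caps and 1728, 1300 and 3185 in C caps (-5.54 ± 0.46, adjusted p = 9.45e-06). The Wnt receptor fzd8.S had 68.4, 26.4 and 57.5 in AcRA caps and 1734, 1718 and 1134 in C caps (-5.0 ± 0.33, adjusted p = 1.59e-06), by 1 of its 3 probe sets. Further falls were those of tbc1d24.2.L, by 5.6 ± 0.57 (adjusted p = 3.84e-05), tcaf1.L, by 4.96 ± 0.43 (adjusted p = 1.2e-05), the protease xepsin.L, by 4.60 ± 0.82 (adjusted p = 0.00255, 1 of 2 probe sets), and the tubulin tuba1cl.3.L, by 3.83 ± 0.30 (adjusted p = 5.64e-06).

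**Figure D4:**
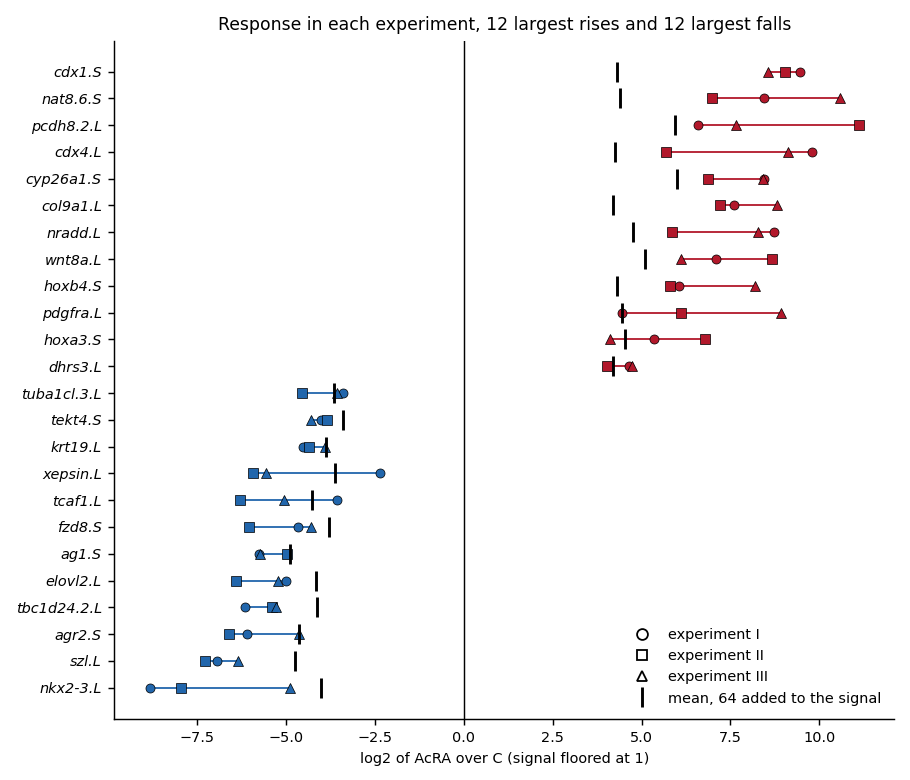
Log2 change of AcRA over C in experiments I, II and III (symbols joined by a line) for the 12 largest rises and 12 largest falls, chosen with 64 added to the signal, whose mean change is the vertical tick. Genes were picked only if they moved the same way in all 3 experiments, so the points of a gene lie on 1 side of 0 by that choice, and the ticks are nearer to 0 where 1 group was near the lowest signals, as for cdx1.S at 4.32 against 9.01.

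The experiments gave like numbers of large rises. With 64 added, AcRA over C was 4-fold or more in experiments I, II and III for 232, 221 and 234 probe sets. Falls of at least 4-fold numbered 141, 141 and 246. Across probe sets, which are not independent replicates, the responses of 2 experiments had a correlation of 0.742 to 0.766 with 64 added and of 0.455 to 0.461 without. Among bright called genes, the response differed most between experiments for agr2.L, pnhd.L, cer1.S and gbx2.2.L, whose C or AcRA signals were low. The hindbrain border gene gbx2.2.L had 841, 794 and 380 in AcRA caps and 52.3, 4.99 and 66.9 in C caps, a rise of 4.61 ± 0.85 (adjusted p = 0.00309).

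Both the L and the S copy were read for 1017 genes. In 53 genes both were called, in 52 of them (98.1%) in the same direction. In 165 genes 1 copy was called, and the other had the same sign in 115. In the remaining 799 neither was called. The share of pairs with the same sign over all 1017 was not counted, so the 98.1% and the 115 have no background beside them. A difference between copies was not tested, since their probe sets are not on a common scale. The brightest pairs with a single call were eef1a1o, gng5, nucks1 and rtn4. For the elongation factor eef1a1o, the L copy had 916, 1048 and 850 in AcRA caps and 2668, 3749 and 5854 in C caps (-2.06 ± 0.27, adjusted p = 0.000274), and the S copy changed by -0.50 ± 0.15 (adjusted p = 0.0572). For the G protein subunit gng5, the S copy had 3072, 3700 and 2967 in AcRA caps and 5507, 5601 and 5306 in C caps (-0.76 ± 0.15, adjusted p = 0.00417), and the L copy changed by 0.05 ± 0.13 (adjusted p = 0.914). The calls of nucks1.S, at -0.91 ± 0.20 (adjusted p = 0.0111), and rtn4.S, at 0.64 ± 0.17 (adjusted p = 0.0271), did not hold: nucks1.S was not called without the AcRA array of II or the C array of II or III (adjusted p = 0.0618 to 0.0805), and rtn4.S without any 1 array (adjusted p = 0.0574 to 0.136). The other copies, nucks1.L at 0.03 ± 0.14 (adjusted p = 0.955) and rtn4.L at 0.04 ± 0.29 (adjusted p = 0.969), were not called.

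The injected caps give a second reading of the same treatment on other arrays of the same 3 experiments. On arrays labelled lhx1-AS/AcRA the signal of lhx1.L was 1144, 991 and 1614, against 1.55, 42.6 and 3.2 on lhx1-AS arrays, so the RNA of the targeted gene was not low on the arrays where the label names the oligonucleotide with AcRA. No group received a control oligonucleotide, and effects through lhx1 and other effects of injection cannot be told apart. The lhx1-AS array of experiment I stood apart, with a 3-prime to 5-prime ratio of 5.4 for actin, against 0.456 to 0.908 on the other arrays. Of the 820 probe sets higher in AcRA than in C caps, 762 (92.9%) also had a positive change between arrays labelled lhx1-AS/AcRA and lhx1-AS arrays, and 476 were called. In the injected caps 6.34% of all tested probe sets were called higher and 6.64% lower. Of the 797 lower in AcRA than in C caps, 729 (91.5%) had a negative change there too, and 442 were called. The share with the same sign over all tested probe sets was not counted, so 92.9% and 91.5% have no background beside them. Calls in the opposite direction numbered 2 and 5.

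The response itself, AcRA minus C less that of the injected caps, differed for 239 probe sets (1.54% of those tested), 135 with a more positive response in uninjected caps and 104 with a more negative one. Of the 1617 called in uninjected caps, 105 (6.49%) were among them. The 239 were 226 without the lhx1-AS array of experiment I, 132 and 139 without the AcRA array of I or III, 144 without the C array of I, 135 without the lhx1-AS array of III, and 138 without the array labelled lhx1-AS/AcRA of I. They were 68 without the block and 431 with 64 added. The Wnt receptor fzd8.S, lower in AcRA than in C caps, had 3682, 2389 and 5707 on arrays labelled lhx1-AS/AcRA and 1786, 1598 and 3081 on lhx1-AS arrays, and its response differed by -5.83 (adjusted p = 7.07e-05). The Nodal inhibitor lefty.L, not called in uninjected caps, had 512, 1157 and 1396 on arrays labelled lhx1-AS/AcRA and 1.59, 1.91 and 2.90 on lhx1-AS arrays, and its response differed by -6.94 (adjusted p = 0.00815). The keratin krt12.4.L had 2760, 4985 and 1302 on arrays labelled lhx1-AS/AcRA and 15067, 15920 and 15278 on lhx1-AS arrays (difference 2.38, adjusted p = 0.0176). Without the AcRA array of III, the C array of II or the lhx1-AS array of III, the difference for krt12.4.L was not called (adjusted p = 0.0547 to 0.0614).

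**Figure D5:**
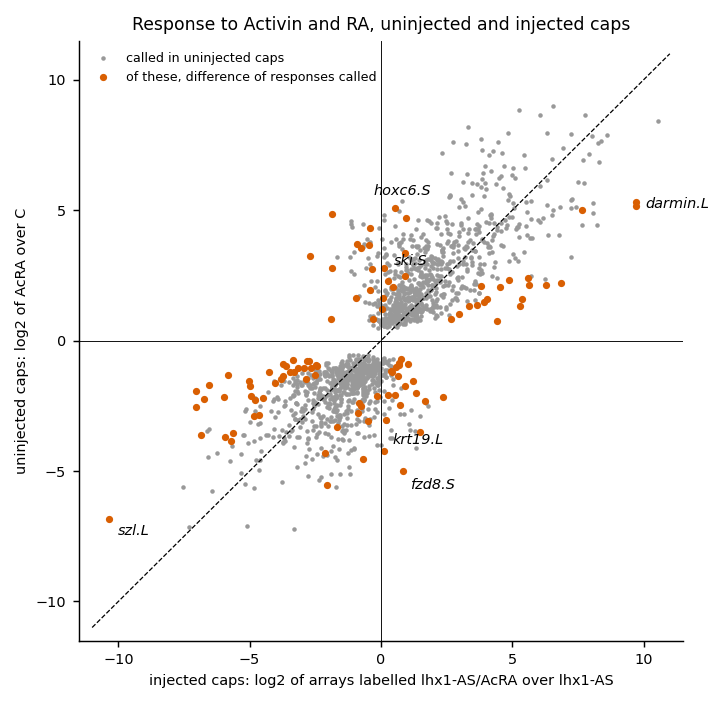
Log2 change of AcRA over C in uninjected caps (y axis) against that of arrays labelled lhx1-AS/AcRA over lhx1-AS (x axis) for the 1617 probe sets called in uninjected caps. Orange points are the 105 whose responses differed, among them fzd8.S, with -5.0 in uninjected and 0.84 in injected caps, and the dashed line marks equal responses.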

How the data were processed

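RNA of Xenopus animal caps was measured on 12 arrays, in 4 groups of 3, grouped by the labels. The intensity of every probe set was deposited by the authors as a GCOS signal, linear and brought to 1 trimmed mean for all arrays (2% cut at both ends). No GCOS version was found in the sources. All 12 columns belonged to the series, and no arrays were identical.

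From the 15611 probe sets 108 controls were removed and 12 for frog actin and Gapd kept. Signals under 1 (410 on AcRA and C arrays) were set to 1, and log2 was taken. The model was limma 3.58.1 in R 4.3.3, fitted on all 12 arrays with 4 group means, the experiment as a block and a variance trend, leaving 6 residual degrees of freedom, with Benjamini-Hochberg adjustment at 0.05 over 15503 probe sets. The study's methods used a t-test with fold thresholds, which was run as an alternative. The labels number the experiments of every group. The arrays were paired by these labels. Arrays of different groups in the same experiment had correlated deviations from their group means (0.152 to 0.269 in 18 pairs). The 36 pairs of different experiments had -0.190 to -0.00368. Deviations cancel within each group, so these negative values follow in part from the positive ones and are no separate evidence.

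Symbols came from the array's annotation (9304 probe sets with 1 symbol, 195 with several, 6112 with none). The members, the 22 gene lists and the tests were chosen with earlier results of these data known. Named genes were the 12 largest changes in each direction with 64 added (mean of at least 500 in the higher group, same way in 3 experiments), up to 3 called and 2 bright uncalled members of each list, kidney regulators, the widest ranges over experiments and homeolog pairs. Other list members were named after their values were seen. Alternatives were no block, 16 or 64 added, quantile or median scaling, no dimmest 40%, no trend, 6 arrays only, the methods' t-test and each array left out. For AcRA against C, only AcRA and C arrays were left out, and the t-test gave counts over all probe sets only. The model was tested on simulated data.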

Additional observations from a re-analysis of the deposited data

Results flagged for a closer look

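For 22 of the probe sets named, the response to AcRA in uninjected caps differed from that in injected caps, by limma's test of the difference (AcRA minus C, less the arrays labelled lhx1-AS/AcRA minus lhx1-AS), at an adjusted p under 0.05 over all probe sets. The lhx1-AS array of experiment I stood apart in its 3-prime to 5-prime ratios. Without it, admp.S, darmin.L, gata6.L, gsc.L, ski.S, tekt2.S and tuba1cl.3.L were no longer called (adjusted p = 0.0572 to 0.0892). Some responses were more negative in uninjected caps. Of genes of organizer and head, lefty.L differed by -6.94, gsc.L by -6.84, fzd8.S by -5.83, admp.S by -4.93 and otx2.L by -3.98. The neural list member zic2.S differed by -3.76. Of endoderm genes, gata4.L differed by -5.27, darmin.L by -4.43 and gata6.L by -1.70. The differences of the endoderm genes a2m.S (-0.84, adjusted p = 0.678) and foxa1.S (-1.44, adjusted p = 0.602) were not called. Nor was that of cer1.S, an endoderm and organizer gene (-1.69, adjusted p = 0.633), though with 64 added it was (-2.6, adjusted p = 0.00213). The keratin krt19.L differed by -4.35 and the elongase elovl2.L by -3.47.

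The other responses were more positive in uninjected caps. The response of itln1.L differed by 4.49 and that of msx1.L by 3.11. Those of hoxc6.S, klf17.L, szl.L and tekt2.S differed by 4.54, 4.28, 3.52 and 3.24, those of ventx2.2.L and krt12.4.L by 2.44 and 2.38, and those of tuba1cl.3.L, ag1.L and ski.S by 1.89, 1.79 and 1.58. For szl.L, with 1.12, 1.57 and 1.58 on arrays labelled lhx1-AS/AcRA, the difference was 0.13 with 64 added (adjusted p = 0.918), and for tekt2.S it was -0.20.

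The differences of fzd8.S, itln1.L, klf17.L, krt19.L, lefty.L, msx1.L and zic2.S were called under every alternative run. Those of admp.S, ag1.L, darmin.L, gata4.L, gata6.L, gsc.L, ski.S, tekt2.S, tuba1cl.3.L and ventx2.2.L were lost on leaving out 1 array, for arrays of each of the 4 groups (adjusted p = 0.0516 to 0.146). They were lost without the block too (adjusted p = 0.06 to 0.382). Quantile scaling ended the calls of ag1.L, gata4.L, gata6.L, tekt2.S and tuba1cl.3.L (adjusted p = 0.0524 to 0.171). With 64 added, that of tuba1cl.3.L was lost (adjusted p = 0.227). That of elovl2.L was lost without the C or lhx1-AS array of experiment II or III (adjusted p = 0.0545 to 0.058) and without the block (adjusted p = 0.109). That of otx2.L was lost without the AcRA or C array of I, the lhx1-AS array of II or the array labelled lhx1-AS/AcRA of III (adjusted p = 0.0546 to 0.0637). That of hoxc6.S was lost without the AcRA array of III (adjusted p = 0.0514) and without the block (adjusted p = 0.132). That of krt12.4.L was lost without the AcRA array of III, the C array of II or the lhx1-AS array of III (adjusted p = 0.0547 to 0.0614).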

How the results depend on the processing

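Counts of probe sets higher, lower and with differing responses were 479, 406 and 68 without the replicate block. Without the variance trend 541 were higher and 512 lower. The methods' t-test called 51 and 24 after Benjamini-Hochberg (1084 and 995 unadjusted). At an unadjusted p under 0.05, that test gave 396 at least 4-fold higher and 652 at most 0.5-fold of C. These fold thresholds of the study differ by direction, so 396 and 652 cannot be set against each other. With 64 added, the differing responses were 431. Leaving out 1 array gave 536 to 608 higher, 429 to 641 lower and 132 to 312 differing responses. Other alternatives kept these counts within 1.5-fold: 64 added (962 higher, 1065 lower), 16 added (962, 994), quantile scaling (824, 812), median scaling (799, 812), no dimmest 40% (673, 754) and 6 arrays only (1015, 1116). Of 124 named probe sets called, 102 kept the call in every alternative limma fit that held them. All 1705 alternative values kept the direction, 1599 of them called. The methods' t-test is not among these fits. Named probe sets of the dimmest 40% had no value where that share was left out. Directions that turned belonged to uncalled changes: with 1 array left out they ranged for actb.L -0.03 to 0.13, admp.S -0.02 to 1.81, cetn1.L -0.05 to 0.39, foxa1.S -0.18 to 1.04, gata5.S -0.91 to 0.03, id3 -0.31 to 0.05, krt12.4.L -0.39 to 0.04, krt70.S -0.68 to 0.11, myc.L -0.23 to 0.19 (0.01 by quantile scaling), myf5.L -0.26 to 0.69, nucks1.L -0.05 to 0.11, otogl2.L -0.01 to 0.13, pknox1.L -0.18 to 0.39, pou5f3.1.L -0.31 to 0.25, rarg.S -0.14 to 0.21, rtn3.L -0.24 to 0.05, rtn4.L -0.27 to 0.31, smad2.L -0.03 to 0.29, tpm1.L -0.66 to 0.01 and zic2.S -0.24 to 0.59. The response difference of tekt2.S was -0.20 with 64 added. The cause was not tested. Signals near the lowest values limit the size of changes.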
